A study of Mus musculus with 3 samples.

Results

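Glyceroneogenesis and glycerol handling were followed through 7 genes, Pck1, Pck2, Pcx, Gpd1, Gpd2, Gk and Aqp7, in 3T3-L1 cells on days 2, 8 and 20 after adipogenic differentiation. The genes were taken as a group for their roles in glyceroneogenesis and glycerol handling, with earlier results of these data known. Each was found by the RefSeq accession of its probe. They account for 7 of 39429 non-control probes, 7 of 20142 named genes and 16 spots on each array, since the Pck2 probe was printed 10 times and each of the others once. 3T3-L1 is an established line of mouse preadipocytes that store lipid as fat cells once hormones have induced them, and the study asked how the growth of those cells in culture changes gene expression. Day 2 was just after the induction of differentiation, day 8 followed 6 days later and day 20 after prolonged culture; the labels give no genotype change and no agent that sets the days apart. Each day was 1 Agilent 1-colour array of total RNA, so there are no replicates, no test between days could be made, and every error given is technical.

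Fat cells need glycerol 3-phosphate as the backbone of triglyceride. It can be made from glucose through dihydroxyacetone phosphate, from pyruvate through the shortened gluconeogenic route called glyceroneogenesis, or from free glycerol by glycerol kinase. White adipocytes are known for little glycerol kinase activity, so that the glycerol freed by lipolysis mostly leaves the cell, with Aqp7 as its main channel.

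The 3 arrays lay on 1 slide with 1 scan time. Spots well above local background made up 55.3% to 56.9% of non-control spots per array, and 0 were saturated. Adipocyte markers were well above background for 9, 10 and 10 of 10 genes on days 2, 8 and 20, with leptin (Lep) the one that was not on day 2. On day 8 against day 2, 4 of 9 measured were at least 2-fold higher and 0 lower, against 13.8% and 12.9% of all measured genes. The 4 were Cfd at 6.46 on the log2 scale, Adipoq at 3.83, Slc2a4 at 3.42 and Pparg at 1.71. The other 5 lay between -0.40 and 0.80. On day 20 against day 8, 1 of 10 was higher, Lep at 1.07 from a dim day 8 spot, and 0 lower (median -0.23). Liver and kidney also use Pck1, Pcx and Gk. Of 10 hepatocyte markers, 1, 4 and 3 were well above background on days 2, 8 and 20, and Alb and Hnf4a were not on any array. In that list Cyp2e1 was at least 11.1-fold higher on day 8 than on day 2 and 1.95 higher on the log2 scale on day 20 than on day 8, and Apoa2 was at 1.04 and 0.0035. Of 8 proximal tubule markers, 4, 5 and 3 were well above background on days 2, 8 and 20. Cubn was at least 3.41-fold and Slc22a6 at least 2.31-fold higher on day 8 than on day 2. On the same days Aqp1 was at -1.23, Slc5a2 at -0.43 and Kap at -0.02, and Miox was at least 1.13-fold lower on day 8. On day 20 against day 8, Aqp1 was at 2.56, Cubn at 0.07 and Slc22a6 at -0.90. Macrophage markers gave 3 of 7 on each day, without Adgre1 and Ptprc: Cd14 was at 2.96 on day 8 against day 2 and 0.32 on day 20 against day 8, Itgam at 0.25 and -1.13, and Csf1r at -0.01 and -0.53. Endothelial markers gave 2, 3 and 3 of 6, without Cdh5 and Tek, and both genes measured at each step, Pecam1 and Kdr, were under 2-fold. All 10 cycling-cell genes were at least 2-fold lower on day 8 than on day 2 (median log2 difference -4.70). On day 20 against day 8, 3 of these 10 were at least 2-fold higher and 0 lower (median 0.75). Of 8 measured preadipocyte or fibroblast genes, 3 reached 2-fold on the higher side of day 8 and 1 on the lower, and from day 8 to day 20 the same counts were 3 and 1 of 9. The part of these shifts in the results below was not tested, and in bulk RNA a change in the number of cells of a type cannot be told apart from a change in RNA per cell.

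Values are log2 of the processed intensity minus the 75th percentile of all non-control probes on that array, so that 0 is the signal of a probe at that percentile. All 7 genes were well above background on all 3 arrays. From day 2 to day 8 the group split. Pck1, Aqp7, Gpd1 and Gpd2 were at least 2-fold higher on day 8, Gk and Pck2 were at least 2-fold lower, and Pcx was under 2-fold. Of 12044 measured genes, 13.8% reached 2-fold on the higher side and 12.9% on the lower (26.7% in either direction). The median of the 7 genes was 1.07, against -0.06 over all measured genes. From day 8 to day 20, Pck1 was the only one of the 7 that was at least 2-fold higher, and 0 were at least 2-fold lower, where 3.58% and 1.74% of 12321 genes were (5.32% in either direction). The median of the 7 was 0.23, against -0.05 over all genes. Between days 2 and 20, 4 of 7 passed 2-fold on the higher side and 1 on the lower, with 15.5% and 17.0% of 11888 genes as background (32.4% in either direction). The comparisons share arrays, so they are not independent of each other.

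**Figure D1:**
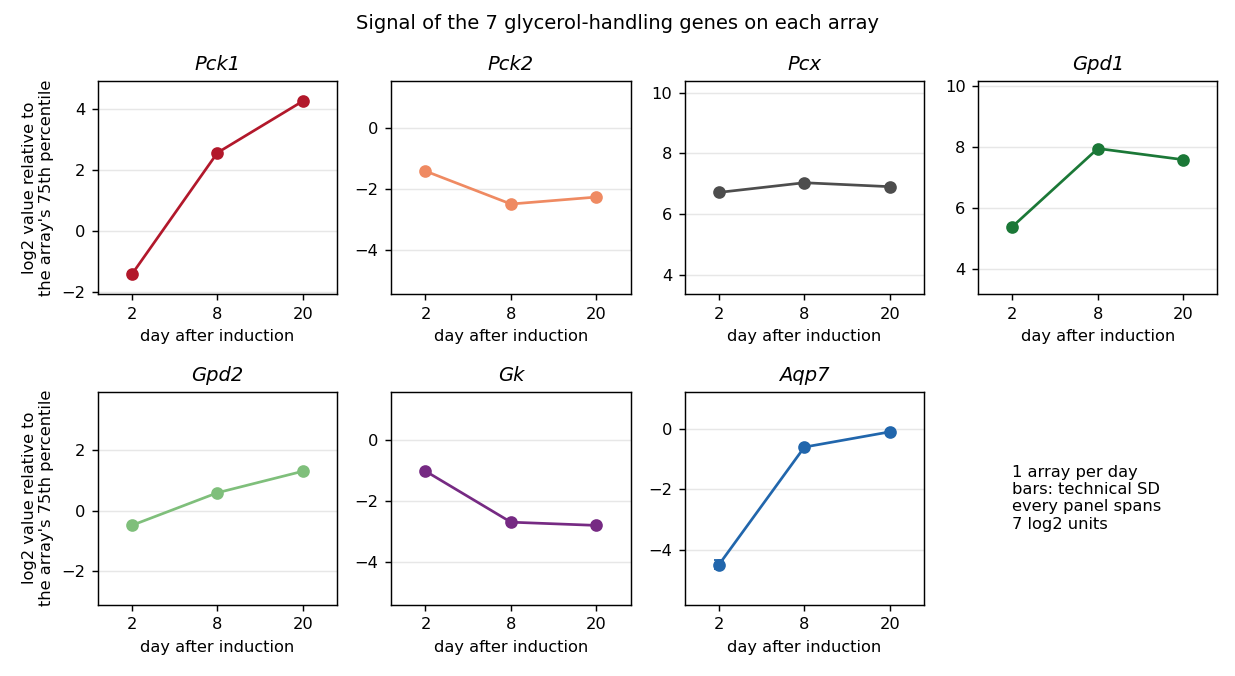
Log2 value of each gene relative to the array's 75th percentile (vertical axis) on days 2, 8 and 20 (horizontal axis), 1 array per day, with bars for the technical SD. The Pck1 line climbs at both steps, to 4.27 on day 20, while the Gk line lies lower on days 8 and 20 than on day 2; levels of different panels are those of different probes and are not amounts to be compared.

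Pck1 encodes the cytosolic phosphoenolpyruvate carboxykinase, the key enzyme of glyceroneogenesis, which turns oxaloacetate into phosphoenolpyruvate. Its value was -1.41 on day 2, 2.58 on day 8 and 4.27 on day 20, from processed signals of 249, 3792 and 17916. Each later day thus lay above the one before. The log2 difference of day 8 minus day 2 was 3.99 (technical SD 0.071), a 15.9-fold higher signal, and ranked 133 of 12044 genes from the highest. Day 20 minus day 8 was 1.70 (SD 0.070), or 3.24-fold, and ranked 115 of 12321. Across the whole interval the signal was 51.4-fold higher on day 20 than on day 2, at rank 57 of 11888. Only 127 of 11413 genes that were well above background on all arrays and carried a gene name rather than a clone name (1.11%) were at least 2-fold higher at both steps, and Pck1 was the one member among them.

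Pck2 encodes the mitochondrial form of the same enzyme. Its 10 spots per array gave a mean of -1.41 on day 2, -2.49 on day 8 and -2.27 on day 20. The spots ran between -1.48 and -1.38 on day 2, between -2.62 and -2.37 on day 8, and between -2.33 and -2.17 on day 20. Day 2 was the highest and day 8 the lowest, though spots of 1 array show only the spread of printing and reading. Day 8 minus day 2 was -1.08 (SD 0.028), just past 2-fold, and it was under 2-fold, at -0.95 and -0.72, when the percentile was taken over detected probes and with normexp background correction. Day 20 minus day 8 was 0.23 (SD 0.031), but 0.04 with normexp and 0.89 with spike-in scaling, so its size depends on the processing. The 2 paralogs therefore moved apart: the difference of Pck1 minus that of Pck2, which no constant scaling of an array can alter, was 5.07 (SD 0.077) for day 8 minus day 2 and 1.47 (SD 0.077) for the later step.

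The start-site windows of the 2 carboxykinase genes are shown because the genes went opposite ways from day 2 to day 8. Both are RefSeq sequences on GRCm38.p6, from 250 bases before to 50 after the annotated start: Pck1 at chr2:173152823-173153122 and Pck2 at chr14:55540016-55540315, both on the plus strand. Capitals mark matches on either strand to the motifs searched, which were chosen after the sequences had been seen.
Pck1: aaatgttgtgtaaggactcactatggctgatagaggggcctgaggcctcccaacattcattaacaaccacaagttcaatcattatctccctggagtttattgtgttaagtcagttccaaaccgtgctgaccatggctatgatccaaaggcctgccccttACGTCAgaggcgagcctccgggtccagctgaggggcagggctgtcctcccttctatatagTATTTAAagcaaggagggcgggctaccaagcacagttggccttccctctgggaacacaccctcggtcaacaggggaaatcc
Pck2: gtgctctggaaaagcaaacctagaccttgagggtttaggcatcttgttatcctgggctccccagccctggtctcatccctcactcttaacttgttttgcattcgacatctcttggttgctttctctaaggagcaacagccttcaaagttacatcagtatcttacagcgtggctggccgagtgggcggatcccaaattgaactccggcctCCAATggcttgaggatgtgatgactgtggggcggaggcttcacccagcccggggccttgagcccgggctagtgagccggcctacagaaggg
The Pck1 window holds ACGTCA, the core of a cAMP response element, from position -91 relative to the start site, and TATTTAA, which resembles a TATA box, from position -31. Of 32851 mouse windows of the same length, 7.51% hold ACGTCA and 4.51% hold TATTTAA. A cAMP response element in the proximal promoter is known from studies of the rat gene. In the Pck2 window neither was found, and CCAAT, present in 37.4% of windows, begins at position -41. A match describes letters only, and says nothing of which factor was bound on these days.

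Pcx encodes pyruvate carboxylase, the mitochondrial enzyme that makes the oxaloacetate used by Pck1 and also for citrate export. Its values were 6.72, 7.04 and 6.91 on days 2, 8 and 20, a spread of less than 2-fold. Day 8 minus day 2 was 0.32 (SD 0.059) and day 20 minus day 8 was -0.13 (SD 0.067). The second value was positive in 4 of 9 other ways of processing, reaching 0.53 with spike-in scaling, so no direction is given for it. Relative to Pck1, the step that follows it, the difference of Pcx (Pcx minus Pck1) was -3.67 on the log2 scale for day 8 minus day 2 and -1.83 for day 20 minus day 8.

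**Figure D2:**
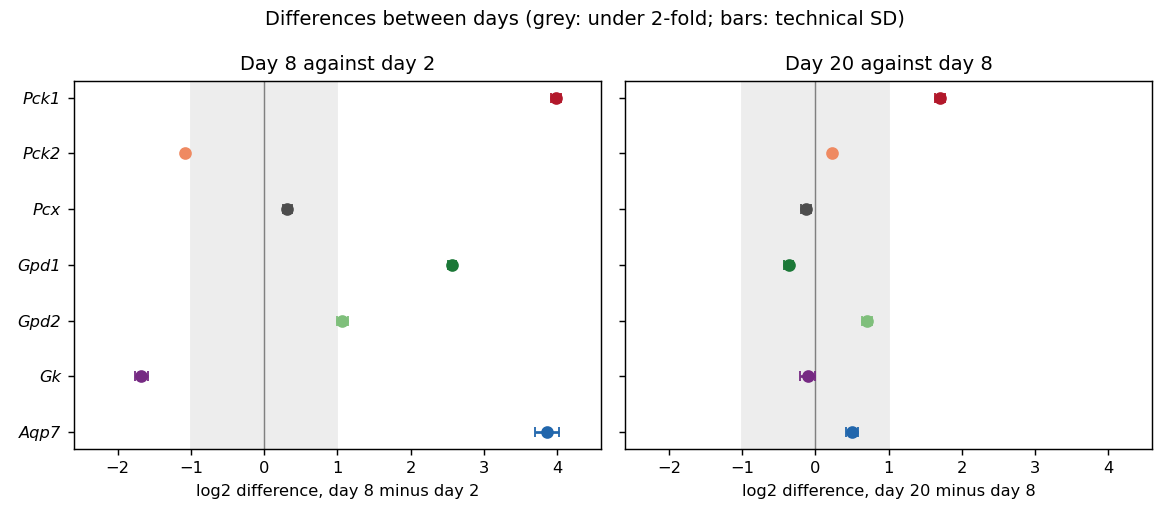
Log2 difference of each gene (horizontal axis) for day 8 minus day 2 (left) and day 20 minus day 8 (right), with bars for the technical SD and grey for under 2-fold. Pck1 at 3.99 and Aqp7 at 3.86 lie farthest right on the left side, Gk at -1.68 farthest left, and on the right side only Pck1 at 1.70 is outside the grey.

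Gpd1 encodes the cytosolic glycerol-3-phosphate dehydrogenase, which reduces dihydroxyacetone phosphate to glycerol 3-phosphate and so ends both the glycolytic and the glyceroneogenic route. It had 5.39 on day 2, 7.96 on day 8 and 7.59 on day 20. The signal was low on day 2 compared with the other days, which lie close together. Day 8 minus day 2 was 2.57 (SD 0.059), or 5.92-fold, at rank 374 of 12044. Day 20 minus day 8 was -0.37 (SD 0.067), and between 0.10 and 0.29 with cyclic loess, quantile normalization and spike-in scaling, so that step has no settled sign. At its brightest the processed signal was 22.9% of the scanner's saturation value, and no spot of it was saturated.

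Gpd2 encodes the mitochondrial enzyme that oxidises glycerol 3-phosphate back and passes the electrons to the respiratory chain, forming a shuttle with Gpd1. Its values were -0.49, 0.58 and 1.29 on days 2, 8 and 20. Both steps were positive in all 10 ways of processing, main values included. Day 8 minus day 2 was 1.07 (SD 0.072), just past 2-fold, and 0.96 when arrays were scaled on the median. Day 20 minus day 8 was 0.71 (SD 0.071), at rank 795 of 12321, and 1.36 with spike-in scaling. Between days 2 and 20 the difference was 1.78 (SD 0.068), a 3.43-fold higher signal on day 20. Gpd1 minus Gpd2 was 1.50 (SD 0.093) at the first of these steps and -1.07 (SD 0.098) at the second. The second value was -0.56 with quantile normalization and -0.66 with cyclic loess, negative in all 9 other ways of processing but under 1 in size in these. Over the whole interval they differed by 0.42 (SD 0.093), and by 1.02 and 0.90 with the same pair of normalizations.

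Aqp7 encodes the aquaglyceroporin through which adipocytes release glycerol. Its values were -4.47 on day 2, -0.61 on day 8 and -0.11 on day 20, from processed signals of 29.8, 417 and 859. The day 2 spot was dim, 1.22 log2 units above the lowest probe well above background. Day 8 minus day 2 was 3.86 (SD 0.167), or 14.5-fold, at rank 149 of 12044, but 2.20 with normexp, whose offset raises dim signals. The size of this difference therefore rests on a dim spot, while its side of 2-fold was the same in all 9 other ways of processing. Day 20 minus day 8 was 0.50 (SD 0.079), under 2-fold except with spike-in scaling at 1.16.

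Gk encodes glycerol kinase, which phosphorylates free glycerol. It had -1.01 on day 2, -2.69 on day 8 and -2.79 on day 20, from processed signals of 328, 98.6 and 134. Day 2 was the highest, and days 8 and 20 differed by about the technical SD. Day 8 minus day 2 was -1.68 (SD 0.091), a 3.20-fold lower signal on day 8, at rank 566 of 12044 from the lowest. The side of 2-fold was the same in all 9 other ways of processing, between -1.78 and -1.18. Day 20 minus day 8 was -0.11 (SD 0.105), and it was positive in 3 of 9 other ways, up to 0.55 with spike-in scaling. The glycerol kinase and the glycerol channel went opposite ways from day 2 to day 8, when Gk minus Aqp7 was -5.54 (SD 0.190), and -3.37 with normexp. The day 2 side of it includes the dim Aqp7 spot. At the later step the contrast was -0.61 (SD 0.131), and Gk has no settled sign there.

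Windows of the same kind are shown for this pair, for Aqp7 the more downstream of its 2 annotated starts, at chr4:41047913-41048212, and for Gk chrX:85776770-85777069, both on the minus strand and printed in the direction of the gene.
Aqp7: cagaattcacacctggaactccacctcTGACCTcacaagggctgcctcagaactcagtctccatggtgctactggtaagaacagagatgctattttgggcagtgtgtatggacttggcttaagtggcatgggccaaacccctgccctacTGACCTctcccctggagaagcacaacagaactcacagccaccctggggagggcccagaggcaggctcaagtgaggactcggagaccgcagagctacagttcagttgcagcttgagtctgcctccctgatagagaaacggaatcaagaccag
Gk: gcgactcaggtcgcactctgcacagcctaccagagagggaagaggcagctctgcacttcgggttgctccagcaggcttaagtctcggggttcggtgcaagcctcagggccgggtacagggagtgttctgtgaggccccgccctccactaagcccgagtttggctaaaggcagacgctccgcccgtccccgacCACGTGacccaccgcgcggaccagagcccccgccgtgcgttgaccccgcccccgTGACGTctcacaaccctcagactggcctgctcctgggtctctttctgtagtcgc
In the Aqp7 window TGACCT, the reverse complement of the nuclear receptor half-site AGGTCA, begins at positions -223 and -101. Of all windows, 16.3% hold this half-site on either strand, and a Pcx window holds it at position 40. The full direct repeat AGGTCANAGGTCA, which contains that half-site and is in 0.0396% of windows, was in 0 of the 9 windows found for 6 of the 7 genes. At so small a share, its absence from 9 windows carries no information. Only these exact letters were searched, so imperfect repeats of the half-site were not looked for. The Gk window holds the E-box CACGTG, in 7.15% of windows, at position -58, and TGACGT, the reverse of ACGTCA, at position -4. TATAAA, in 13.6% of all windows, was in 0 of the 9. For Gpd1 no window was used here.

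**Figure D3:**
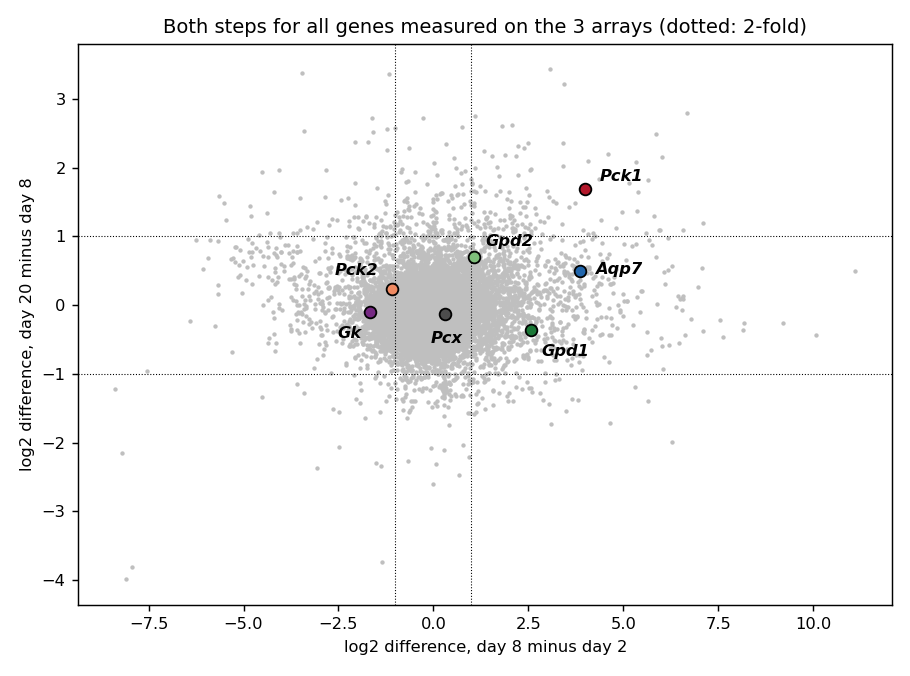
Log2 difference of day 8 minus day 2 (horizontal axis) against day 20 minus day 8 (vertical axis) for all genes measured on the 3 arrays (grey) and the 7 glycerol-handling genes (coloured), with dotted lines at 2-fold. Pck1 stands alone among the 7 above the upper line, Gk and Pck2 lie left of the left line, and both axes use the day 8 array, so the shape of the cloud is no relation between steps.

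By step, Gpd1, Gpd2 and Aqp7 passed 2-fold on the higher side at the first step and stayed under it at the second, as were 1457 of 11413 genes (12.8%). Pck2 and Gk passed it on the lower side at the first step alone, as were 1379 (12.1%). Pcx was under 2-fold at both steps, like 8070 genes (70.7%). The nearest genes to 3 of the members were sought by Euclidean distance over the 2 successive log2 differences among 11412 other genes on the 3 arrays, which is a description of these arrays alone. Nearest to Pck1 were Nrg4, encoding the adipocyte-secreted neuregulin 4 (distance 0.33, differences 3.73 and 1.49), the complement gene C4b, Csprs, Sema3b and Pde3b (distance 0.60), and 0 genes lay within 0.25. For Aqp7, 18 genes lay within 0.25, and the first 5 were Gbe1, the glycogen branching enzyme (distance 0.13, differences 3.74 and 0.55), Thbd, H2-DMb1, Podnl1 and Gstm3. For Gpd1, 30 genes lay within that distance, led by Echdc3 (distance 0.044, differences 2.53 and -0.35), Fsd2, Grik5, Inca1 and Tnfaip3. Csprs, Sema3b, Podnl1 and Fsd2 had day 2 values of -4.90, -5.39, -4.91 and -5.35, dimmer than Aqp7 at -4.47. Their first differences, and so their distances, rest on dim spots.

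Genes of the surrounding steps were read in 9 lists, which hold 96 genes beside the 7. On day 8 against day 2, 27 of 87 measured genes reached 2-fold on the higher side (31.0%) and 11 on the lower (12.6%), with a median of 0.36. Of 27 measured genes with other measured probes, 5 had at least 1 of them on another side of 2-fold than the brightest: Ldha, Gapdh, Hk1, Abhd5 and Rxra. On day 20 against day 8, 2 of 88 reached it on the higher side (2.27%) and 0 on the lower, with a median of 0.06. The background over all measured genes was 13.8% and 12.9% for day 8, and 3.58% and 1.74% for day 20. The share on the higher side of day 8 was above that of all genes, and the others lay near or under it. The lists were chosen with earlier results of these data known, so that excess is a description and no independent result.

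Among other aquaporins, Aqp11, an intracellular channel, was higher on day 8 by 2.03 (SD 0.077), and its other probe by 2.08. Aqp5, a water channel, was at least 50.2-fold higher on day 8, as its day 2 spot did not clear the background mark. Aqp1, also a water channel and a marker of kidney tubule and endothelium, had 1.22, -0.01 and 2.56 on days 2, 8 and 20, or -1.23 for day 8 minus day 2 and 2.56 for day 20 minus day 8. The other aquaglyceroporins of the list, Aqp3 and Aqp9, were not well above background on any array.

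Of the other enzymes of glycerol and glycerol 3-phosphate, Gpd1l, a paralog of Gpd1, was at -1.06 (SD 0.079) on day 8 against day 2, opposite to Gpd1. Tkfc, the kinase of dihydroxyacetone and glyceraldehyde, was at 1.35, and the other 4 measured genes were under 2-fold. The glycerol kinase paralogs Gk2 and Gykl1 were not well above background on any array, and on day 20 against day 8 all 6 measured genes were under 2-fold.

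For oxaloacetate and its carriers, 3 of 13 genes reached 2-fold on the higher side of day 8 and 3 on the lower (median 0.02). Acly, the ATP citrate lyase, was at 1.74 and Slc25a10, the dicarboxylate carrier, at 1.40. Slc25a12, a mitochondrial aspartate and glutamate carrier, was at -2.76 and Got1, the cytosolic aspartate aminotransferase, at -1.76. At the branch point of pyruvate, 3 of 11 were higher and 0 lower (median 0.53). They were Pdk1 at 3.68 and Pdk2 at 1.29, kinases that inhibit pyruvate dehydrogenase, and Pdp2 at 2.03, a phosphatase that activates it. Ldha, the lactate dehydrogenase A subunit, was at 0.36 by its brightest probe but at 1.39 and 1.31 by its other probes. Pdk4, the isoform induced by fasting in many tissues, was at -0.05 on day 8 against day 2 and 0.57 on day 20 against day 8. In both lists 0 genes were at least 2-fold apart between days 20 and 8.

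On the glycolytic route to dihydroxyacetone phosphate, 6 of 11 genes reached 2-fold on the higher side of day 8 and 0 on the lower (median 1.07). The insulin-responsive glucose transporter Slc2a4 was at 3.42, the phosphofructokinase subunit Pfkl at 2.54, the basal glucose transporter Slc2a1 at 1.91 and the isomerase Gpi1 at 1.87. Between days 20 and 8, Pfkp, the platelet-type phosphofructokinase subunit, was the one gene at least 2-fold higher, with values of 0.95, 1.56 and 2.67 on days 2, 8 and 20. Of 6 measured genes of the remaining gluconeogenic route, 3 were higher on day 8, Pgk1 at 1.84, Eno1 at 1.36 and the ubiquitous glucose-6-phosphatase G6pc3 at 1.29. Pgk1 and Eno1 also serve glycolysis. Gapdh, a step of both routes, was under 2-fold by its brightest probe, at 0.77, but 5 of its 6 other probes lay between 1.32 and 1.94, and the sixth was at 0.21. The enzymes of glucose release proper were faint: Fbp1 and Fbp2 were not well above background on any array, and G6pc was so only on day 8.

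Downstream, the acylation of glycerol 3-phosphate and triglyceride assembly had 2 of 11 genes past 2-fold on the higher side of day 8 and 2 on the lower (median -0.04). Lpin3, a phosphatidate phosphatase, was at 3.95 (SD 0.204, from a dim day 2 spot) and the acyltransferase Agpat3 at 2.04. Gpat3, which acylates glycerol 3-phosphate itself, was at -1.91 and Agpat2, the next acyltransferase, at -1.01, just past 2-fold. In lipolysis to glycerol 4 of 8 were higher and 1 lower (median 0.91). Ces1d, a carboxylesterase, was at 6.54 and the monoglyceride lipase Mgll, which frees the glycerol, at 1.96. Lipe, the hormone-sensitive lipase, was at 1.19 and Pnpla2, the first triglyceride lipase, at 1.01, just past 2-fold. The lower gene was Abhd5, at -1.01 by its brightest probe and at -1.10 and -0.86 by its other probes. Neither list had a gene at least 2-fold apart between days 20 and 8.

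**Figure D4:**
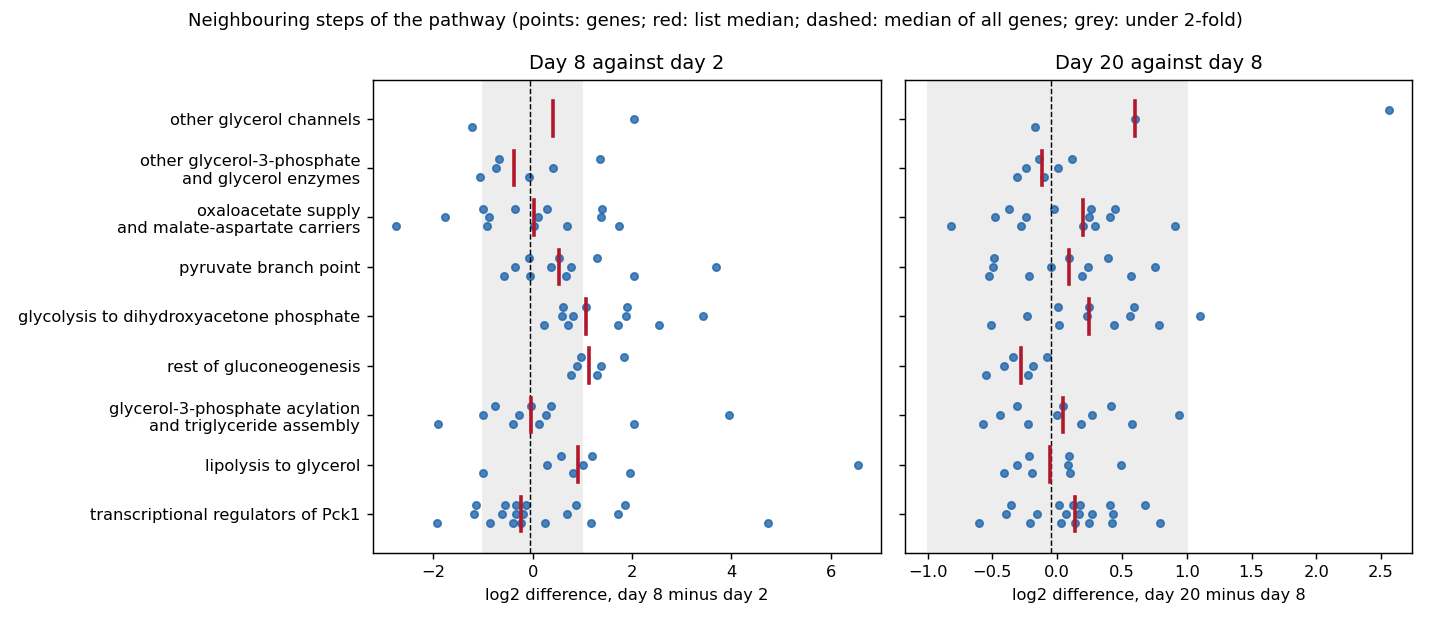
Log2 differences of the measured genes of 9 lists around the 7 genes (blue points) for day 8 minus day 2 (left) and day 20 minus day 8 (right), with list medians in red, the median of all genes dashed and grey for under 2-fold. The glycolysis list has a median of 1.07 on the left, and on the right the 2 points right of the grey are Aqp1 at 2.56 and Pfkp.

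Regulators known to act on Pck1 transcription showed no common direction: of 19 measured genes, 4 reached 2-fold on the higher side of day 8 and 3 on the lower (median -0.24). Dbp, a clock-controlled activator, was at 4.74 and the glucocorticoid receptor gene Nr3c1 at 1.87. Pparg, the nuclear receptor of adipocyte differentiation, was at 1.71 and Srebf1 at 1.17. On the lower side were the orphan receptor gene Nr2f1 at -1.92, Cebpb at -1.18 and Creb1 at -1.14. From day 8 to day 20, 0 of the 19 were at least 2-fold apart, near the share of 5.32% over all measured genes. The part of these regulators in the Pck1 values was not tested. Pparg was at -0.15 on day 20 against day 8. That value of Pparg is smaller than 2-fold and its sign depends on the scaling of the arrays.

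**Figure D5:**
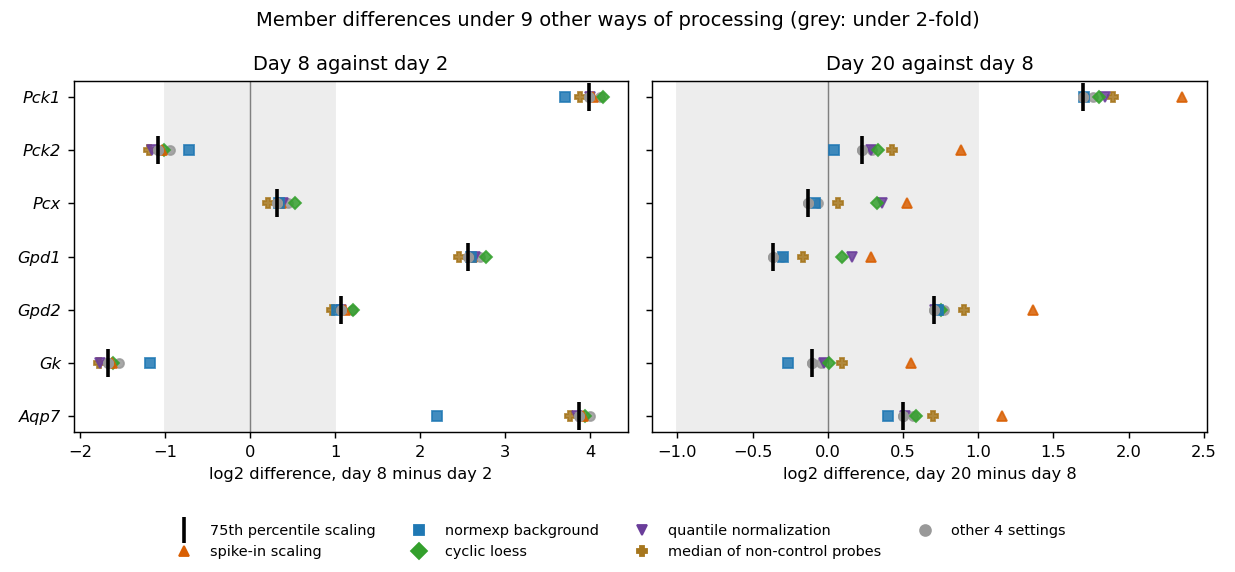
Log2 difference of each of the 7 genes (horizontal axis) with 75th percentile scaling (black bar) and in 9 other ways of processing (symbols), for day 8 minus day 2 (left) and day 20 minus day 8 (right), grey marking under 2-fold. Spike-in scaling moves every gene to the right on the day 20 side, Pck1 to 2.35 and Gpd2 to 1.36, while on the day 8 side normexp moves Aqp7 to 2.20.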

How the data were processed

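Per the labels' protocols, total RNA of each sample was labelled with Cy3 for 1-colour Agilent arrays. The deposited intensity values came from Feature Extraction 10.7.1.1 (the tool and version in the processing notes of the submitters), and the processed signal is background-corrected and not scaled between arrays, per the file headers. Other deposited marks (0 or 1) are used as they stand. The deposited log2 series table differs from log2 intensity by a constant on each array, within 0.01 for 99.7% of probes on each array. The values used here are log2 intensity, averaged over spots of a probe without controls and outlier spots, minus the 75th percentile of all non-control probes on the array. Probes were named through a RefSeq table of assembly GRCm38.p6, which matched 26581 of 39429 probes. The array design names an earlier build, so probe coordinates are not given. A gene took its brightest probe, and each of the 7 genes has 1. A difference was measured where both arrays were well above background. Where only 1 was, a bound was taken against the lowest signal well above background. The technical SD comes from probes printed many times (394 to 398 per array), as a function of signal, and covers spots of 1 array only. The number of arrays limits the precision. The members and lists were chosen with earlier results of these data known. Genes of the lists were named as the 4 largest differences past 2-fold per list. Pdk4, Ldha, Gapdh, Hk1, Abhd5, Rxra, Srebf1, Cebpb, Creb1, Aqp3, Aqp9, Gk2, Gykl1, Fbp1, Fbp2 and G6pc were named after their values were seen. The difference code was tested on simulated data. Normalizations used limma 3.58.1 in R 4.3.3, with normexp on the median signal (offset 50), since the mean signal was not among the columns.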

Additional observations from a re-analysis of the deposited data

How the results depend on the processing

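Results were recomputed in 9 other ways: scaling on the median or on detected probes, quantile normalization, cyclic loess, spike-in scaling, normexp, the series table, no filter on dim probes, and the mean of a gene's probes. Of 21 member differences (7 genes, 3 comparisons), 18 had the same sign in all of them and 17 the same side of 2-fold. The signs that turned were those of Gk, Gpd1 and Pcx for day 20 minus day 8. Spike-in scaling, from 8 probes, moved the median of all genes on day 20 against day 8 by 0.66, and with it 3 of the 7 genes were at least 2-fold apart in place of 1. The count of list genes on day 20 against day 8 was 2. It was 4 with median scaling, cyclic loess and no dim filter, 22 with spike-in scaling and 1 with the mean of a gene's probes. For day 20 against day 8, spike-in scaling gave 2028 genes at least 2-fold higher and 21 lower, against 441 and 214. Cyclic loess gave 620 and 127, median scaling 642 and 123, and no filter on dim probes 694 and 1315. Apart from what the construction of an alternative shows, the cause was not tested. Of the 12 contrasts between pairs of the 7 genes, 10 were 1 or more in size on the log2 scale. Gpd1 minus Gpd2 for day 20 against day 8 dropped out with cyclic loess, which left 9, and with quantile normalization, which kept the count at 10 because the same contrast for day 20 against day 2 passed 1. All 12 kept their sign in the 9 alternatives. Normexp shrank differences that rest on dim spots, as for Aqp7 on day 2. No paired analysis was possible because each day has 1 array and the labels give no replicate numbers. For the same reason no array could be left out.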
